A study of Mus musculus with 4 samples.

Results

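The RNA of 10 imprinted genes, that is, genes read mainly from the copy inherited from 1 parent, was measured in Hepa 1-6, a line of mouse liver cancer cells. The genes were Slc38a4, H19, Igf2, Dlk1, Meg3, Peg3, Igf2r, Cdkn1c, Grb10 and Mest. They were selected by Ensembl ID, and all 10 were found among the 53465 IDs of the count table. The names came with the list, since the table holds IDs only. The list was chosen on imprinting with the counts of these libraries, and their ratios of RIP to input and of Usp5 guide to control, already known. Each of these values is therefore a description, and none of them is tested to support the choice.

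The 4 groups held 1 library each. They were the YTHDF1 precipitate (RIP) and the input of cells with a guide labelled sgUsp5, whose genotype label is Usp5 Knockdown, and the RIP and the input of cells with a guide labelled sgcontrol, whose genotype label is WT. The input was 10% of the lysate, and the RIP was what an antibody to YTHDF1 recovered from the rest of it. Whether either cell population was a single clone or a pool is not given in the sources used here. The libraries held between 29898171 and 33941019 counts. The levels of Usp5 and Ythdf1 and the markers of hepatocytes and other cells were not analysed here, so the knockdown label and the cell type are unchecked, because neither the count table nor the reference pairs their names with IDs.

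YTHDF1 is a cytoplasmic reader of N6-methyladenosine in mRNA, and USP5 is a ubiquitin-specific protease. Imprinted genes mostly lie in clusters in which marks set in the egg or the sperm, DNA methylation above all, silence 1 parental copy. Many of them act on fetal growth, with paternally expressed genes such as Igf2 often promoting it and maternally expressed ones such as Igf2r and Grb10 often limiting it. In mouse liver several of them, H19 and Igf2 among them, are strongly expressed before birth and shut down after it, and some return in liver tumours. The counts do not separate the parental copies, so which copy was read is unknown.

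Slc38a4, Igf2r and Grb10 were read well enough to be compared. Their starts are shown because these are the RNAs the results turn on. Each window holds 250 bases before and 50 after a start annotated by RefSeq (GRCm38.p6), on the minus strand in all 3 cases, with CG dinucleotides, the sites that DNA methylation acts on, in capitals.
Slc38a4, chr15:97055907-97056206: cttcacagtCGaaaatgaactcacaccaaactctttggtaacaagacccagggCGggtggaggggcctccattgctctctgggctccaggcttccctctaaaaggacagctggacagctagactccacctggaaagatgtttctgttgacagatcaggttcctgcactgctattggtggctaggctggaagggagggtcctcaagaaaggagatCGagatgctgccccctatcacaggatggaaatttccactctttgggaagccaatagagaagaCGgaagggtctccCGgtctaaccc
Igf2r, chr17:12769657-12769956: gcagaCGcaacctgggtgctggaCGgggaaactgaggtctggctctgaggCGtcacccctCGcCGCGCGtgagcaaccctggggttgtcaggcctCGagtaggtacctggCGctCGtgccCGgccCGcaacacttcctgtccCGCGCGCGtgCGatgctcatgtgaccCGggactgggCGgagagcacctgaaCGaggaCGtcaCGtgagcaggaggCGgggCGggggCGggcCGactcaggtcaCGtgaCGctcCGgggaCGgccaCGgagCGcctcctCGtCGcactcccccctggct
Grb10, chr11:12037371-12037670: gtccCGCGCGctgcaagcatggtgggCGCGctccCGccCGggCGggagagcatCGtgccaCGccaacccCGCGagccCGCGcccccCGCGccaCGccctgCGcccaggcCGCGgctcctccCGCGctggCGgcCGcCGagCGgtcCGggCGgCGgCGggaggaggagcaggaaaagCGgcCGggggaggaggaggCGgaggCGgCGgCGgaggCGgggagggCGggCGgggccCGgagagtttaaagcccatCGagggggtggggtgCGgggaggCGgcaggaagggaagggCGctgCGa
The Slc38a4 window held 5 CG dinucleotides, and so did the windows of 2 further starts of this gene. At least 5 were found in 62.0% of all 32851 promoter windows of 300 bases, whose median was 7. The Igf2r window held 34, a number reached by 7.73% of windows. The Grb10 window held 45, reached by 1.93% of windows, and that of a further Grb10 start held 9. Windows were found for 8 of the 10 genes and not for H19 and Cdkn1c. CG reads the same on both strands, and the counts say nothing about methylation in these cells.

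The 10 genes fell into 3 classes by their reads. Igf2, Dlk1 and Cdkn1c had 0 reads in all 4 libraries. H19, Peg3, Meg3 and Mest had reads but a mean of less than 1 CPM (counts-per-million), which is the level required for a comparison. Grb10, Igf2r and Slc38a4 passed that level, as did 12927 of the 53465 IDs. Grb10 was the member just above it, at a mean of 4.17 CPM, and Meg3 the one just below, at 0.499 CPM. Transcript lengths were not used here, so levels are compared between libraries and not between genes.

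**Figure D1:**
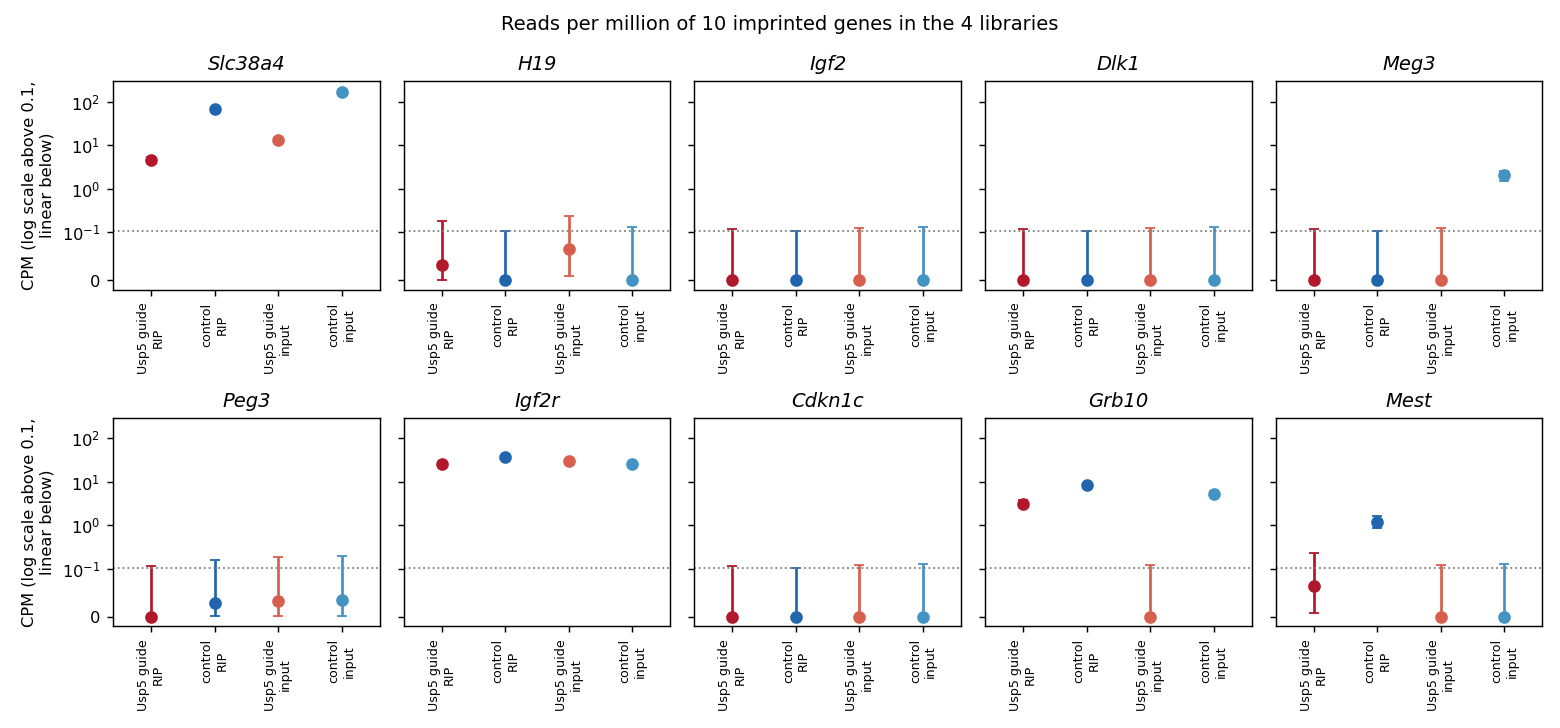
Normalised level of each gene, in CPM, in the 4 libraries (RIP and input of Usp5-guide cells in reds, of control cells in blues); the axis is logarithmic above 0.1 CPM and linear below it. Bars are exact 95% Poisson intervals, which cover counting error only, and the dotted line at 0.105 CPM is the highest level that 3 counts stand for in any library. Slc38a4 was at 4.58 and 66.5 CPM in the Usp5-guide and control RIP and at 13.1 and 163 CPM in the inputs, while Igf2, Dlk1 and Cdkn1c stayed at 0.

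Slc38a4 encodes a sodium-coupled neutral amino acid transporter (SNAT4) of the liver and is paternally expressed in mice, where histone methylation inherited from the egg also takes part in its imprinting. The gene, on the minus strand, lies at chr15:96994816-97055956. Of this span 11817 bases are shared with Gm32840, a long noncoding RNA on the opposite strand, and since the handling of strand is not given, reads of both cannot be told apart there. It was the best read member, with 7582 reads in all. The Usp5-guide input held 403 reads (13.1 CPM) and the control input 4661 reads (163 CPM). The RIP of Usp5-guide cells held 145 reads (4.58 CPM) and that of control cells 2373 reads (66.5 CPM). Both libraries of Usp5-guide cells were thus far below both libraries of control cells, and in each kind of cell the RIP was below the input.

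Usp5-guide cells had 12.5-fold less Slc38a4 RNA than control cells in the inputs, a log2 ratio of -3.64 (95% counting interval -3.79 to -3.49). The level in the Usp5-guide input was 8.02% of that in the control input. In the RIP it was 14.5-fold lower, a log2 ratio of -3.86 (-4.11 to -3.62). With 1 library a group these differences have no replicate check, and the intervals cover counting error only. The RIP and the input of a line came from the same lysate, so the second difference does not repeat the first in other cells. The guide and any other difference between the 2 cell populations cannot be told apart, nor can fewer cells with the RNA and less of it per cell.

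Scatter between libraries was judged from other genes at a similar level (within 0.5 of the mean log2 CPM of Slc38a4). Of 1836 such genes, 1 had a ratio between the inputs at least as far from no difference as that of Slc38a4, and that one lay in the other direction. Between the RIP libraries this number was 0. The log2 ratios of these genes had an SD of 0.44 between the inputs and 0.25 between the RIP libraries. Among the 5244 genes that averaged 32 CPM or more, Slc38a4 (ENSMUSG00000022464) had the lowest ratio of Usp5 guide to control in the inputs and also in the RIP. Lower by at least 2-fold in both were 3 of these 5244 genes (0.0572%), Slc38a4 included. The mean of Slc38a4 reached 32 CPM only through the control libraries, at 163 CPM in the input and 66.5 CPM in the RIP. The Usp5-guide libraries were at 13.1 and 4.58 CPM. The genes at a similar level were matched on the same mean. Since Slc38a4 passed this filter through control cells and was listed with this difference known, its rank is no independent support for it.

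Slc38a4 RNA made up a smaller share of the RIP than of the input in either kind of cell. RIP over input was 2.86-fold lower in Usp5-guide cells (145 and 403 reads), a log2 ratio of -1.51 (-1.80 to -1.24). In control cells it was 2.46-fold lower (2373 and 4661 reads), a log2 ratio of -1.30 (-1.37 to -1.22). Of the 5244 genes that averaged 32 CPM or more, 8.52% were at least 2-fold lower in Usp5-guide cells, 11.5% in control cells, and 5.80% in both. In Usp5-guide cells Slc38a4 was itself under 32 CPM, at 13.1 CPM in the input and 4.58 CPM in the RIP. Among genes that averaged under 32 CPM the shares were 17.5% in Usp5-guide cells and 17.9% in control cells. A ratio at least as far from no difference as that of Slc38a4 was less common among the 1836 genes matched on its mean over the 4 libraries. It was seen in 49 (2.67%) in Usp5-guide cells and in 179 (9.75%) in control cells, in either direction. Because reads are shares of a library, this is depletion relative to the other RNAs and not absence from the precipitate. Without a control precipitate, recovery by the antibody and by the beads cannot be told apart. A fit of RIP against input over all 4 libraries, blocked by line, was also made with edgeR. At an adjusted p under 0.05 its quasi-likelihood test called 11.3% of the 12927 genes lower and 10.1% higher, and Slc38a4 was among the lower ones. That call is no independent support either.

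The depletion of Slc38a4 was close in both kinds of cell. The change in enrichment, Usp5-guide minus control cells, was -0.22 on the log2 scale (-0.50 to 0.06), and 1110 of the 1836 genes at a similar level changed at least as much. The lower level in Usp5-guide cells was seen in the input and in the RIP, by similar factors.

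**Figure D2:**
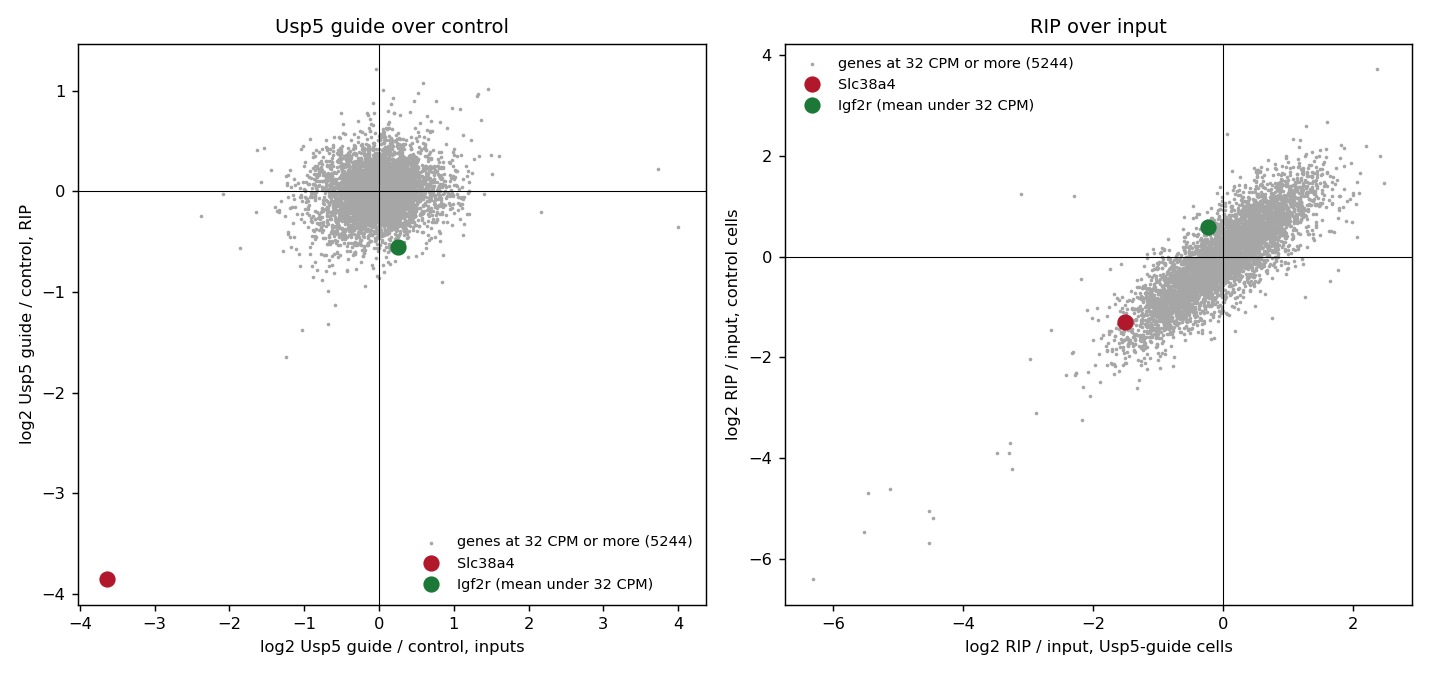
Left, log2 ratio of Usp5-guide to control cells in the inputs (x axis) and in the RIP (y axis). Right, log2 RIP over input in Usp5-guide cells (x axis) and in control cells (y axis). Grey points are the 5244 genes that averaged 32 CPM or more. Slc38a4 lies by itself at -3.64 and -3.86 on the left and within the spread of the other genes, at -1.51 and -1.30, on the right. Igf2r, whose mean is under 32 CPM, lies near the cloud in both.

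The abundant genes whose pattern over the 4 libraries was most like that of Slc38a4 were not very like it. Likeness was measured as the root mean square difference of log2 CPM, each gene centred on its mean, over 4 libraries and 5243 candidate genes. The nearest was ENSMUSG00000054932, at a distance of 1.17, with log2 ratios of Usp5 guide to control of -1.25 in the inputs and -1.64 in the RIP. Next came ENSMUSG00000029368 at 1.29, with -1.03 and -1.38. With Slc38a4, both make up the 3 of 5244 abundant genes that were at least 2-fold lower in inputs and RIP. The third nearest lay at 1.40. The closest patterns thus had the same direction and smaller differences.

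Igf2r encodes the cation-independent mannose-6-phosphate receptor, which binds IGF2 and takes it to the lysosome, and is maternally expressed in most mouse tissues. The gene (ENSMUSG00000023830) lies at chr17:12682406-12769706. Of this span 28396 bases are shared with Airn, the noncoding RNA read from the opposite strand. The handling of strand is not given, so reads of both cannot be told apart there. The RIP and the input of Usp5-guide cells held 809 reads (25.5 CPM) and 922 reads (30.0 CPM). Those of control cells held 1338 reads (37.5 CPM) and 716 reads (25.1 CPM). Igf2r was read evenly in all 4 libraries, with the control RIP highest.

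RIP over input of Igf2r was 1.17-fold lower in Usp5-guide cells, a log2 ratio of -0.23 (-0.37 to -0.09), and 1.49-fold higher in control cells, a log2 ratio of 0.58 (0.45 to 0.71). The change in enrichment was -0.81 on the log2 scale (-1.0002 to -0.62). Between Usp5-guide and control cells the inputs differed by a log2 ratio of 0.26 (0.11 to 0.40) and the RIP libraries by -0.55 (-0.68 to -0.43). None of these reached 2-fold. Of 1869 genes at a similar level, 375 (20.1%) had a change in enrichment at least as large and 169 (9.04%) a difference between the RIP libraries at least as large. The differences of Igf2r were thus larger than counting error and of a size that many other genes showed between these libraries.

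Grb10 encodes an adaptor protein that binds the insulin and IGF1 receptors and limits their signal. It is also a substrate of mTORC1, and most mouse tissues outside the nervous system express the maternal copy. The gene (ENSMUSG00000020176) lies at chr11:11930499-12037428. Of this span 9120 bases are shared with LOC102631979, a long noncoding RNA on the same strand, so reads of both may not be told apart there. The RIP and the input of Usp5-guide cells held 100 reads (3.16 CPM) and 0 reads. Those of control cells held 297 reads (8.33 CPM) and 148 reads (5.19 CPM). The Usp5-guide input was thus the one library without a read, although the RIP from the same lysate had 100.

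Between the RIP libraries Grb10 was 2.63-fold lower in Usp5-guide cells, a log2 ratio of -1.40 (-1.74 to -1.07). A difference at least as large was seen in 105 of 1357 genes at a similar level (7.74%). In the inputs it was 53.2-fold lower in Usp5-guide cells, counting the 0 as 3 reads. This leaves out the counting error of the 148 reads in the control input, so it is not a strict lower bound. On the same basis the RIP was 32.4-fold higher than the input in Usp5-guide cells. In control cells it was 1.61-fold higher, a log2 ratio of 0.68 (0.39 to 0.98). The change in enrichment on that basis was 20.2-fold higher, Usp5-guide over control cells, and rests on the input without a read.

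With 0.5 counts added, ratios at least as far from no difference were seen in 11 of the 1357 genes at a similar level in the inputs (0.811%), in 20 for RIP over input in Usp5-guide cells (1.47%) and in 46 for the change in enrichment (3.39%). Of the 9666 genes with at least 148 reads in the control input, 41 (0.424%), Grb10 included, had 0 reads in the Usp5-guide input. The other way round it was 47 genes (0.477%). Of the 10782 genes with at least 100 reads in the Usp5-guide RIP, 60 (0.556%) had 0 in the input of the same lysate. No molecular identifiers are described for these PCR-amplified libraries, so 148 reads need not be 148 molecules. These ratios for Grb10 allow for counting error only in the library at 0, and the part that amplification had in them was not tested.

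**Figure D3:**
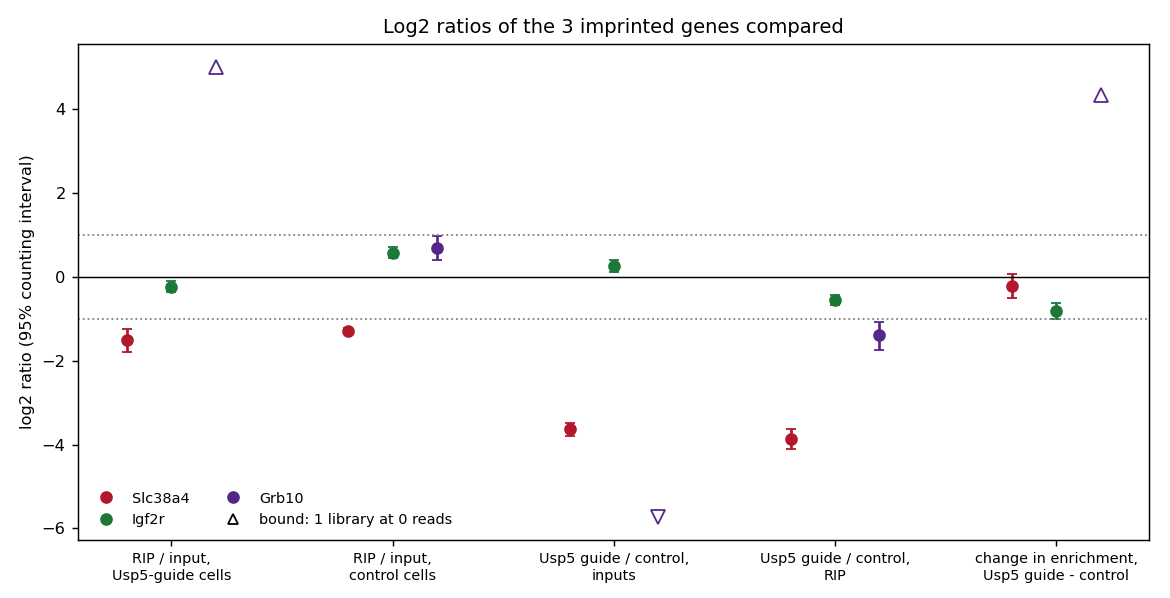
Log2 ratios of Slc38a4, Igf2r and Grb10 in the 5 comparisons, with 95% counting intervals as bars. Open triangles (bounds in the legend) are Grb10 ratios where the Usp5-guide input had 0 reads, counted as 3. They leave out the counting error of the other libraries. Dotted lines mark 2-fold. Slc38a4 lies near -3.6 to -3.9 in both comparisons of Usp5 guide with control, and Igf2r within 2-fold in all 5.

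Over the 3 members compared, the counts past 2-fold can be set beside those of all 12927 genes. In the inputs 2 of 3 were lower in Usp5-guide than in control cells (12.3% of all genes) and 0 higher (12.5%). In the RIP 2 were lower (4.78%) and 0 higher (4.72%). These were Slc38a4 and Grb10 both times. RIP over input was lower for 1 member, Slc38a4, in Usp5-guide cells (13.9% of all genes) and in control cells (15.3%). It was higher for 1 member, Grb10, in Usp5-guide cells (16.0%) and for 0 in control cells (18.4%). In both kinds of cell it was lower for 1 member, Slc38a4 (6.51%), and higher for 0 (6.74%). The change in enrichment was higher for 1, Grb10 (13.8%), and lower for 0 (14.2%). The median log2 ratio of the 3 members was -3.64 in the inputs and -1.40 in the RIP for Usp5 guide over control, beside -0.01 and -0.01 over all genes. For RIP over input it was -0.23 in Usp5-guide and 0.58 in control cells, beside 0.02 and 0.03. With 3 members, 2 of them under 32 CPM, these figures describe the genes named and not imprinted genes as a class.

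H19 (ENSMUSG00000000031) is a maternally expressed long noncoding RNA, abundant in fetal liver, from which miR-675 is made. It had 1 read in the RIP and 2 reads in the input of Usp5-guide cells, and 0 reads in both libraries of control cells. Igf2 (ENSMUSG00000048583), a fetal growth factor expressed from the paternal copy, lies 72.6 kb from H19 on chromosome 7 and had 0 reads in every library. A count of 0 allows up to 3 counts, or between 0.0841 and 0.105 CPM in these libraries. Both genes of this neighbouring pair were therefore at or under the limit of detection, and no ratio is given.

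Dlk1 (ENSMUSG00000040856), a paternally expressed membrane protein related to Notch ligands, and Meg3 (ENSMUSG00000021268), a maternally expressed long noncoding RNA, lie 77.7 kb apart on chromosome 12. Dlk1 had 0 reads throughout. The span of Meg3 shares 6830 bases with the protein-coding gene Rtl1, and reads of both may not be told apart there. Meg3 had 57 reads (2.00 CPM) in the control input and 0 in the other 3 libraries, including the control RIP. With the 0 counted as 3 reads and no error on the 57 reads, Meg3 was 20.5-fold lower in Usp5-guide cells in the inputs. On that basis the RIP of control cells was 23.8-fold lower than their input. Of the 11731 genes with at least 57 reads in the control input, 482 (4.11%), Meg3 included, had 0 reads in the Usp5-guide input and 253 (2.16%) had 0 in the control RIP. The other way round these numbers were 458 (3.86%) and 192 (1.61%).

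Mest (ENSMUSG00000051855), a paternally expressed member of the alpha/beta hydrolase family, had 2 reads in the Usp5-guide RIP, 42 in the control RIP and 0 in both inputs. All 44 of its reads were thus in the precipitates. Between the RIP libraries the counts gave a ratio 18.7-fold lower in Usp5-guide cells, with a counting interval from 4.85 to 159-fold. Mest averaged 0.310 CPM, under the level required for a comparison. The interval covers counting error only, and 42 reads need not be 42 molecules. With the 0 counted as 3 reads and no error on the 42 reads, the RIP of control cells was 11.2-fold higher than their input. Of the 12426 genes with at least 42 reads in the control RIP, 330 (2.66%), Mest included, had 0 reads in the control input, and the other way round it was 361 (2.93%). The 3′ end of Mest overlaps that of Copg2 on the opposite strand by 913 bases.

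Peg3 (ENSMUSG00000002265), a paternally expressed zinc finger protein, had 0 reads in the Usp5-guide RIP and 1 in each other library. Cdkn1c (ENSMUSG00000037664), the maternally expressed cyclin-dependent kinase inhibitor p57, had 0 reads throughout. It lies on the same chromosome as H19 and Igf2, 792 kb from Igf2. All these counts are at or below 3 reads, and no difference was detectable at this depth.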

How the data were processed

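The reads had been processed with HISAT2 2.1.0, featureCounts 1.6.3 and the mm10 genome, per the submitters' processing notes. The sources used here do not give the annotation, the strand setting or the treatment of multiply matching or duplicate reads. The authors deposited raw counts per Ensembl ID for the 4 libraries in 1 table, and 0 columns were left unmatched. The reference used (49997 genes, RefSeq GRCm38.p6) paired 0 Ensembl IDs, so the lists of other imprinted, IGF axis, amino acid transporter and marker genes were not analysed here. Coordinates and promoter windows are RefSeq's, matched by symbol.

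Counts were scaled with TMM (edgeR 4.0.16, R 4.3.3). Genes that averaged 1 CPM or more were compared (99.8% of reads), by log2 ratios called at 2-fold, with 0.5 counts added and scaled to library size. Intervals are Clopper-Pearson intervals of 1 library's share of both libraries' reads or, for the change in enrichment, from the reciprocal counts, at 95%. For ratios of Grb10, Meg3 and Mest with 1 library at 0, the 0 was counted as 3 reads. The counting error of the other libraries was left out of them. Code was tested on simulated data. Alternatives were DESeq2 1.42.0 size factors, library totals, 2 counts added, other filters and 1.5-fold. All members were described, and other genes were named by likeness to Slc38a4. The members and lists were chosen with earlier results of these data known.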

Additional observations from a re-analysis of the deposited data

Results flagged for a closer look

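Igf2r had opposite directions in the compared groups. RIP over input was below 1 in Usp5-guide cells and above 1 in control cells, and Usp5 guide over control was above 1 in the inputs and below 1 in the RIP. Both amount to the same change in enrichment, -0.81 on the log2 scale (counting interval -1.0002 to -0.62). The difference was not tested, since each group is 1 library, and 375 of 1869 genes at a similar level changed at least as much.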

How the results depend on the processing

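Of 85 recomputed log2 ratios of Slc38a4, Igf2r and Grb10, 0 changed sign and 14 were labelled as moved. The moved ones were Grb10 values that use its empty input, or RIP over input in control cells with library totals. The filters on reads and on mean CPM cannot change a ratio. For Slc38a4, Usp5 guide over control ranged from -3.65 to -3.57 in the inputs and from -3.86 to -3.84 in the RIP. Library totals moved the median log2 RIP over input of all genes to 0.15 in Usp5-guide and 0.21 in control cells, and with them Slc38a4 in control cells to -1.11 and Igf2r to 0.76. They gave 2456 genes higher and 1431 lower in Usp5-guide cells (2069 and 1791 with TMM) and 2975 and 1509 in control cells (2378 and 1981 with TMM). Grb10 values that use its empty input moved by up to 1.99 with 2 counts added, as they rest on the added count. The counts of members depend on which genes are compared. At 10 reads in all, Meg3 and Mest entered, each through the 1 library where it was high, so their calls follow from the filter. RIP over input then gave 2 of 5 members higher in Usp5-guide cells (25.2% of all genes) and 1 higher (26.8%) and 2 lower (17.8%) in control cells. The change in enrichment gave 2 higher (22.8%) and 1 lower (22.5%), inputs and RIP gave 3 lower each (17.1% and 13.0%), and 2 had the same direction in both lines. At a mean of 5 CPM, Grb10 left, with 1 member lower in the inputs (6.36% of all genes) and in the RIP (1.18%). At that level 0 members were higher in RIP over input of Usp5-guide cells (11.02%) and in the change in enrichment (7.46%). There the genes lower in Usp5-guide cells numbered 631 in the inputs (1595 as reported, 3159 at 10 reads) and 117 in the RIP (618 and 2401). The genes compared numbered 9919 at 5 CPM, 12927 as reported and 18511 at 10 reads. At 1.5-fold, 1 of 3 members was higher in the RIP of control cells (29.6% of all genes) and 1 had a lower change in enrichment (22.7%). In both lines 2 had the same direction. The share of all genes in both lines is not given at 1.5-fold or 10 reads, so these counts are not read as a result about the members. With the line as a replicate block, which leaves 1 residual degree of freedom, edgeR called 1 member, Slc38a4, for RIP against input at an adjusted p under 0.05. Usp5 guide against control has no such fit, because each guide gave 1 lysate. Scaling with abundant genes alone was added after seeing the data. Meg3, Mest and Grb10 each had 0 reads in at least 1 library, which limits their ratios. The Usp5-guide input held 31751069 counts and the control input 30804293. Genes with reads numbered 15898 and 15909 in these inputs, and 17919 and 18333 in the RIP of Usp5-guide and control cells. The cause of the zeros was not tested.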
